A study of Mus musculus with 6 samples.

Results

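The genes described here were 10 cyclic nucleotide phosphodiesterases, Pde1a, Pde1c, Pde2a, Pde4a, Pde4b, Pde4d, Pde7a, Pde7b, Pde8a and Pde8b, chosen by name from the 24841 genes of a table of single-nucleus RNA sequencing from mouse striatum. All 10 were found in the table. They were chosen with earlier results of these data known, so counts and sizes set beside all genes below are not those of an unselected list. The nuclei came from dissected striatum, frozen before use, of wild-type mice (3 libraries) and of mice heterozygous for Celsr3 (3 libraries), a gene that encodes an atypical cadherin with a role in axon guidance. The libraries are biological replicates per the labels, taken here to be 1 mouse each. No age, sex, strain, litter or allele design is given in the labels, and no other agent or allele is named for either group.

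Cyclic nucleotide phosphodiesterases hydrolyse cAMP, cGMP or both, and so end the signals that adenylyl and guanylyl cyclases start. Pde1 enzymes are switched on by calcium and calmodulin, Pde2a is stimulated by cGMP, and the Pde4, Pde7 and Pde8 enzymes are selective for cAMP. In striatum, medium spiny neurons (MSNs) of the direct pathway carry the D1 dopamine receptor, which raises cAMP, and those of the indirect pathway carry the D2 receptor, which lowers it.

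The table held 48834 nuclei, 7735 to 8875 per library, and 47927 were kept after suspected doublets had been left out. Each value is a whole number that behaves as a depth-corrected UMI value, so the read depth of a nucleus is unknown. A nucleus had a median of 2435.5 to 3004 genes, by library. A level below is the mean value per nucleus of a library, and levels are compared within a gene, never between genes. Nuclei were clustered without any phosphodiesterase gene and 17 classes were named as "-like" from marker lists. Of the lists' genes, 6 of 10 were highest in their own class for D1 MSN-like nuclei, 6 of 10 for D2 MSN-like nuclei, 11 of 11 for oligodendrocyte-like nuclei and 7 of 11 for mural-like nuclei. Unnamed clusters held 10.324% of the kept nuclei, and 274 barcodes occurred in more than 1 library. Class shares differed between libraries, and glutamatergic neuron-like nuclei made up 2.6% to 19.91% of a library, with the highest share in heterozygous replicate 1. The level of Celsr3 was set beside the labels: D1 MSN-like nuclei had 0.147, 0.170 and 0.177 in wild type and 0.0797, 0.101 and 0.0999 in heterozygotes. The groups did not overlap, as for 16.4% of all genes tested in that class. Celsr3 fell short of the threshold in the planned fit given below, so this is a weak check.

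Each phosphodiesterase had its own order of classes. The highest level lay in MSN-like nuclei for Pde1c, Pde2a and Pde7b, in oligodendrocyte-like nuclei for Pde4b and Pde8a, in mural-like nuclei (pericytes and vascular smooth muscle) for Pde4d and Pde8b, in glutamatergic neuron-like nuclei for Pde1a and Pde4a, and in committed oligodendrocyte precursor-like nuclei for Pde7a. These levels over 6 libraries are a description with no test, and classes whose ranges over libraries overlap are said not to differ beyond their spread.

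**Figure D1:**
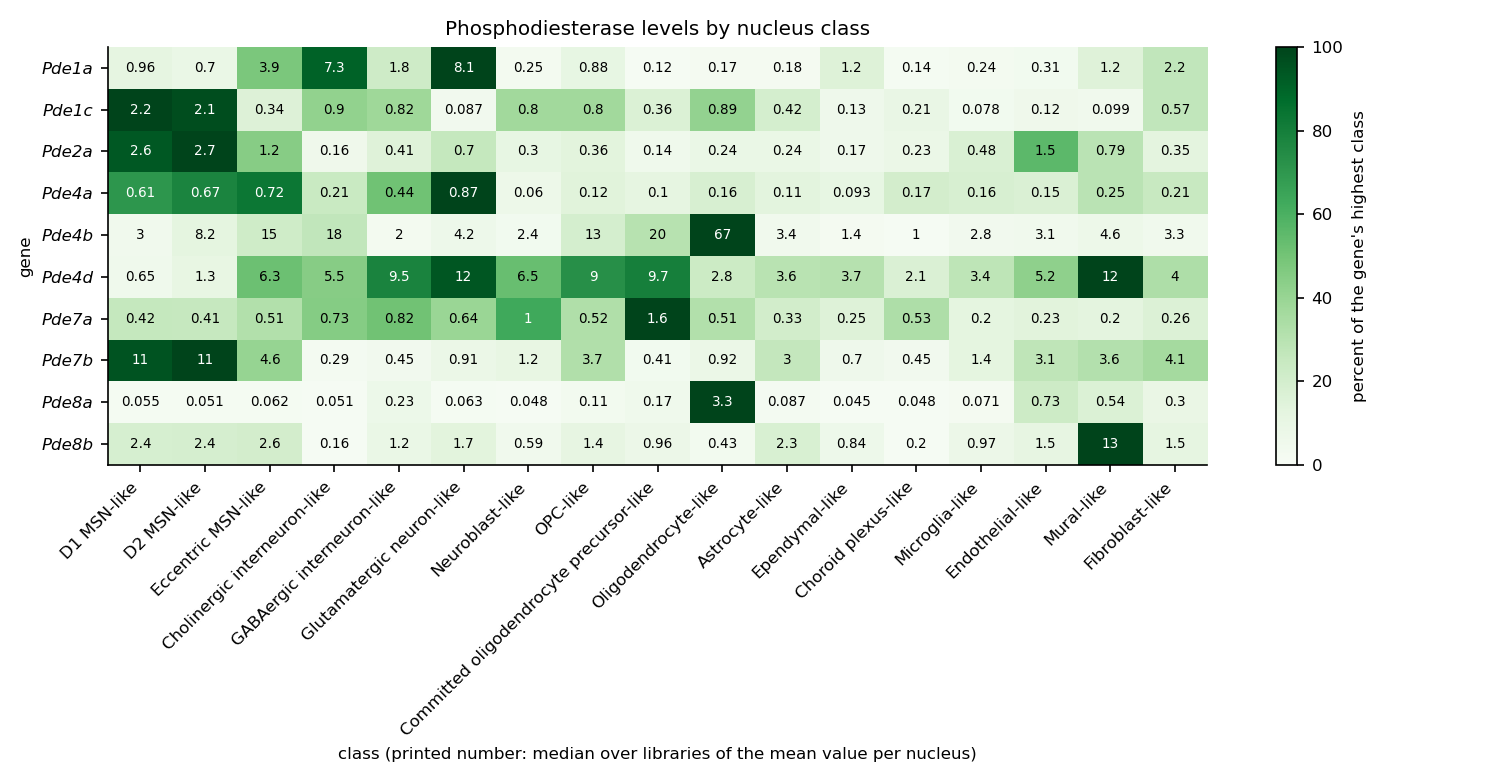
Median level of each phosphodiesterase (rows) in each class (columns) over the libraries, printed in the cells, with the colour giving the percentage of the gene's highest class. Pde8a and Pde8b each have 1 dark class, oligodendrocyte-like (3.26) and mural-like (12.8), while Pde7a and Pde4d are spread over many classes.

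Pde1a, a calmodulin-dependent enzyme that prefers cGMP, reached 6.44, 8.10 and 10.4 (lowest, median and highest library) in glutamatergic neuron-like nuclei. In cholinergic interneuron-like nuclei the corresponding levels were 5.50, 7.32 and 9.78. The ranges of these classes overlapped. Eccentric MSN-like nuclei, a small MSN population named from markers such as Otof and Tshz1, came next with 2.20, 3.87 and 4.82, below both, while the highest fibroblast-like library reached 6.22. The medians of the principal MSN-like classes were 0.958 (D1) and 0.703 (D2), and the committed oligodendrocyte precursor-like class was lowest, 70.1-fold below glutamatergic neuron-like nuclei. That lowest level was 1.43% of the glutamatergic neuron-like one, where summed glutamatergic neuron-like markers stood at 4.68%. The part of free RNA in it was not tested. The glutamatergic neuron-like class joined unlike clusters, with Pde1a medians from 4.42 in cluster 33 to 13.8 in cluster 26. Cluster 33 made up 0.383% to 54.7% of the class by library and cluster 26 20.5% to 52.1%, and the part of these shares in the class level was not tested. Glutamatergic neuron-like nuclei contributed 15.5% to 65.5% of the value of Pde1a over all nuclei of a library.

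Pde1c, which hydrolyses cAMP and cGMP alike, had a median of 2.16 in the D1 and of 2.10 in the D2 MSN-like class, with overlapping ranges. Cholinergic interneuron-like (0.897) and oligodendrocyte-like nuclei (0.891) followed. The cholinergic interneuron-like level was 42.2% of that in D1 and D2 MSN-like nuclei, and summed MSN markers stood at 47.1% there. Pde7b, Pde2a and Pde8b stood at only 2.62%, 5.96% and 6.64% of their MSN-like levels in that class. The summed markers are thus a weak yardstick for free RNA there. The part of free RNA from MSNs in the Pde1c level was not tested. The level in eccentric MSN-like nuclei was 0.338, and in glutamatergic neuron-like nuclei it was 0.0872. Glutamatergic neuron-like nuclei were thus the highest of 17 classes for Pde1a and next to the lowest for Pde1c.

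Pde2a, which lets cGMP speed the breakdown of cAMP, had its highest level in D2 MSN-like nuclei, at 2.67, 2.74 and 2.89. D1 MSN-like nuclei came next at 2.45, 2.56 and 2.66, and the ranges did not overlap. Endothelial-like nuclei followed with a median of 1.52, and eccentric MSN-like nuclei had 1.23. The lowest median was 0.142, in committed oligodendrocyte precursor-like nuclei. D1 and D2 MSN-like nuclei contributed 38.0% and 33.6% of the value over all nuclei (medians over libraries).

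Among the Pde4 genes, which encode the rolipram-sensitive cAMP phosphodiesterases, Pde4b was highest in oligodendrocyte-like nuclei. Its levels there were 60.6, 67.2 and 70.2, and every nucleus of that class had a value above 0 in every library. Committed oligodendrocyte precursor-like nuclei followed at 19.5, 20.3 and 24.1, well below the oligodendrocyte-like range. Cholinergic interneuron-like (18.0), eccentric MSN-like (14.6) and oligodendrocyte precursor cell (OPC)-like nuclei (13.04) formed a group of overlapping ranges. D2 MSN-like nuclei had 7.13, 8.18 and 9.04 and D1 MSN-like nuclei 2.37, 3.02 and 3.09. Pde4d, whose product is another rolipram-sensitive enzyme, had another order: mural-like nuclei had 10.0, 12.2 and 14.9 and glutamatergic neuron-like nuclei 8.76, 11.6 and 18.4. The mural-like range overlapped that of glutamatergic neuron-like nuclei. It also overlapped those of committed oligodendrocyte precursor-like (median 9.74) and GABAergic interneuron-like nuclei (9.52). D2 MSN-like nuclei had 1.27 and D1 MSN-like nuclei, the lowest class, 0.649. Pde4a was highest in glutamatergic neuron-like (0.867), eccentric MSN-like (0.720), D2 MSN-like (0.671) and D1 MSN-like nuclei (0.613), whose neighbouring ranges overlapped, and the GABAergic interneuron-like class lay below them at 0.444.

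Pde7a and Pde7b, which encode rolipram-insensitive cAMP phosphodiesterases, differed in place. Pde7b had 9.71, 11.4 and 13.4 in D2 MSN-like nuclei and 9.11, 10.8 and 13.8 in D1 MSN-like nuclei, and at least 99.33% of these nuclei had a value above 0 in each library. Eccentric MSN-like nuclei were lower, at a median of 4.59, and the cholinergic interneuron-like level of 0.292 was 39.1-fold below D2 MSN-like nuclei. Pde7a was highest in committed oligodendrocyte precursor-like nuclei at 1.00, 1.61 and 1.94, with neuroblast-like (1.02) and GABAergic interneuron-like nuclei (0.818) next and all neighbouring ranges overlapping. The antisense gene Gm16093 overlaps Pde7a, and its median over all nuclei was 0.218 beside 0.492 for Pde7a. Whether strand was used in counting is not given in the sources used here, so reads of this pair may not be separable.

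The Pde8 genes encode cAMP phosphodiesterases of high affinity that resist the general inhibitor IBMX. Pde8a had 2.85, 3.26 and 3.35 in oligodendrocyte-like nuclei, where 76.35% to 84.53% of nuclei had a value above 0. Endothelial-like nuclei were next at 0.593, 0.729 and 0.785, and D1 MSN-like nuclei had 0.0554. Oligodendrocyte-like nuclei contributed 83.6% to 88.9% of the value of Pde8a over all nuclei and 63.8% to 81.4% of that of Pde4b. Pde8b had 10.7, 12.8 and 16.2 in mural-like nuclei, of which there were 40 to 61 per library. Eccentric MSN-like (2.59), D2 MSN-like (2.42), D1 MSN-like (2.38) and astrocyte-like nuclei (2.27) followed with overlapping ranges, and the cholinergic interneuron-like class was lowest, 80.4-fold below mural-like nuclei. The antisense genes Gm48420 and Gm16243 overlap Pde8b, with medians of 0.0391 and 0.00746 over all nuclei beside 1.70 for Pde8b.

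Free RNA in a droplet run can add values of a gene to nuclei that do not express it. For most members, levels in other classes were therefore set beside the summed markers of a class in which the member was high. Pde8a exceeded the oligodendrocyte-like marker percentage in 2 of 16 other classes, endothelial-like (22.4% of its oligodendrocyte-like level, markers 18.3%) and GABAergic interneuron-like (7.20%, markers 4.44%). In the latter, cluster 23 (381 nuclei, 0% of the class in heterozygous replicate 1, and 8.41% with a high doublet score before these were removed) had a median of 0.667, while clusters 5, 22 and 24 had 0.142, 0.113 and 0.116. The part of doublets in cluster 23 was not tested. In D1 and D2 MSN-like nuclei it stood at 1.70% and 1.57%, below the markers (3.63% and 4.07%), so these levels are not read as expression, and the part of free RNA in them was not tested. In committed oligodendrocyte precursor-like nuclei, which belong to the same lineage, the markers stood at 57.7%, so they are no yardstick for free RNA in that class. Pde4b exceeded the markers in 6 of 16 classes: it stood at 12.2% of the oligodendrocyte-like level in D2 MSN-like nuclei (markers 4.07%) and at 4.49% in D1 MSN-like nuclei (markers 3.63%), and in astrocyte-like nuclei it was below them (5.01%, markers 12.97%). Pde1a was above the glutamatergic neuron-like markers in 9 of 16 classes. Pde4d was above the mural-like markers in all 16 other classes, and Pde8b in 14 of 16. Mural-like nuclei contributed only 1.70% of the value of Pde4d and 5.22% of that of Pde8b over all nuclei (medians over libraries). Their markers are thus a weak yardstick for free RNA of these genes. Beside summed MSN markers, Pde8b was above in 10 of 14 other classes, Pde1c in 4, Pde7b in 3 and Pde2a in 2. The part of free RNA in the levels at or below the markers was not tested.

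The loci, on GRCm38 with GENCODE vM21, range in length from 47.5 kb for Pde4a to 1504 kb for Pde4d, which spans chr13:108449948-109953461. Pde8a is at chr7:81213596-81334533 and Pde4b at chr4:102087543-102607259, both on the plus strand. Pde7b is at chr10:20398004-20725078 on the minus strand and Pde2a at chr7:101421691-101512827 on the plus strand. RefSeq promoter windows (GRCm38.p6, 250 bases before to 50 after an annotated start) matched 9 of the 10 genes, with 27 windows. The full cAMP response element TGACGTCA, the DNA site of the cAMP-regulated factor CREB, occurred in 0 of these 27 windows against 1.79% of all 32851 windows. Its core TGACG, counted on either strand and also inside the full element, was present in 6 of the 27 windows, against 20.8% of all windows. By gene, 6 of the 9 had a core in some window, against 23.0% of all genes. The 9 genes had 27 windows, whereas all 27025 genes had 32851, so the shares by gene are not like for like. The windows below are those of both genes highest in oligodendrocyte-like nuclei and of Pde7b and Pde2a from among the 3 highest in MSN-like nuclei, the third being Pde1c, whose 3 windows hold 0 cores, 5′ to 3′ on the gene's strand, with TGACG or its complement CGTCA in capitals. They lie at chr7:81213015-81213314 (Pde8a, a RefSeq start upstream of the GENCODE one), chr4:102421305-102421604 (Pde4b, an annotated start inside the locus), chr10:20548279-20548578 (Pde7b, also inside the locus) and chr7:101421441-101421740 (Pde2a).
Pde8a: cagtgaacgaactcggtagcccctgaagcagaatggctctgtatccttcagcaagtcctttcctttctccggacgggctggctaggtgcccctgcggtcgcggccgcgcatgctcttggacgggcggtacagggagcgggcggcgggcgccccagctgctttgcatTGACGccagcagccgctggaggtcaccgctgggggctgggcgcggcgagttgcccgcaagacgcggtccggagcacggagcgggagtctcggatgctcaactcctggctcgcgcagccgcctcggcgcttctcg
Pde4b: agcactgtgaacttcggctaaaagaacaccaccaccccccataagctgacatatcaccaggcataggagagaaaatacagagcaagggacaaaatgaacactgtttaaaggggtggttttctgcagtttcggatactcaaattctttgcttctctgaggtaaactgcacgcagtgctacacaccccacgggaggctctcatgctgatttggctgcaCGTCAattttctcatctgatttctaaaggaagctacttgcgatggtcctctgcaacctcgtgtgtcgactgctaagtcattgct
Pde7b: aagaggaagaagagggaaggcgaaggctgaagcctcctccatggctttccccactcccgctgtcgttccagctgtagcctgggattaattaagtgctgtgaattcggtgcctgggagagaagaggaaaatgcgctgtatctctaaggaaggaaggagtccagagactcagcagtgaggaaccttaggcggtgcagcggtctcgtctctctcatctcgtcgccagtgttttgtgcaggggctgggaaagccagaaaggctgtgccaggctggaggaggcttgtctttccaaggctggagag
Pde2a: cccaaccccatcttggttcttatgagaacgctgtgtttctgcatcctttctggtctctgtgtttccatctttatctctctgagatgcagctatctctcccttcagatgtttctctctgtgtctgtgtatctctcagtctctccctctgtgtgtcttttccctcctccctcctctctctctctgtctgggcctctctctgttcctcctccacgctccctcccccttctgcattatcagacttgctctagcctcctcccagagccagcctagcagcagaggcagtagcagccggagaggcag
The Pde8a and Pde4b windows each hold 1 core and those of Pde7b and Pde2a hold 0. Of the windows not shown, the other 3 of Pde4b hold 0 cores, while 1 of the other 4 of Pde2a holds a core, so the gene pairs are not set apart by it. A match or its lack is a property of these letters alone.

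The D1 and D2 MSN-like classes were compared within each library, over both genotypes. Pde4b was the member that differed most: its level was lower in D1 MSN-like than in D2 MSN-like nuclei in 6 of 6 libraries, by 2.82-fold (log2 difference -1.49 ± 0.036 SE, adjusted p = 3.0e-19, limma with Benjamini-Hochberg adjustment). Pde4d was lower as well (-0.86 ± 0.053, adjusted p = 1.0e-11, 6 of 6 libraries), and Pde2a slightly so (-0.11 ± 0.021, adjusted p = 0.00025, 6 of 6 libraries). Pde1a was higher in D1 MSN-like nuclei (0.39 ± 0.063, adjusted p = 3.8e-05), in 5 of 6 libraries. This direction held for 1 of the 3 D1 MSN-like clusters described below, cluster 8 (median 2.21): clusters 9 (0.0709) and 10 (0.433) had lower medians of Pde1a than both D2 MSN-like clusters (0.607 and 1.19). The other 6 did not pass: Pde7b had -0.042 ± 0.019 (adjusted p = 0.093, and 0.028 without wild-type replicate 2), and Pde1c, Pde4a, Pde7a, Pde8a and Pde8b had adjusted p values from 0.25 to 0.77. So 4 of 10 members were called, 1 higher and 3 lower, beside 36.1% of all 13500 genes tested, 27.7% higher and 8.33% lower. The median size of the log2 difference was 0.0739 for the members and 0.103 for all genes. D1 MSN-like nuclei had more genes per nucleus than D2 MSN-like nuclei in every library (3275.5 to 3498.5 against 3068 to 3383), and its part in these differences was not tested beyond matching nuclei on it, under which these 4 members kept their direction and their call. The classes were drawn from the same nuclei that were compared. Limma's SE draws in part on the variance of all genes, so these p-values alone do not say how evenly a difference recurs over libraries.

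**Figure D2:**
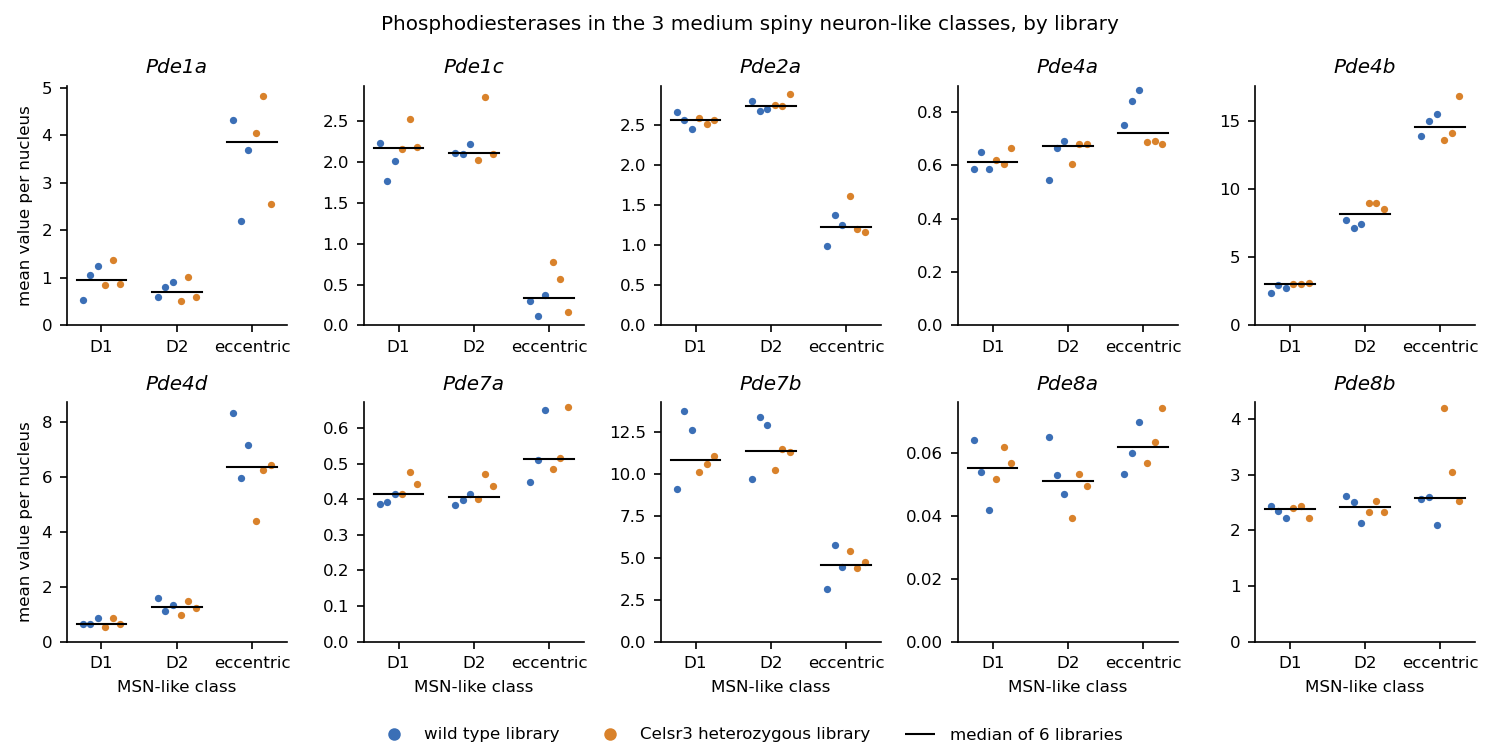
Level (mean value per nucleus, vertical axis from 0) of each phosphodiesterase in D1, D2 and eccentric MSN-like nuclei, with 1 point per library and a line at the median of 6. The Pde4b and Pde4d points of the 3 classes do not overlap, whereas Pde7b, Pde8b and Pde1c points of D1 and D2 do.

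Eccentric MSN-like nuclei differed from the principal classes in the levels of most of these phosphodiesterases. Pde4d (log2 difference from the mean of D1 and D2 of 2.74 ± 0.070 SE, adjusted p = 5.4e-13), Pde1a (2.06 ± 0.15, 4.5e-08) and Pde4b (1.61 ± 0.066, 6.4e-11) were higher in 6 of 6 libraries by limma. Pde1c was 6.67-fold lower (-2.74 ± 0.23, adjusted p = 1.6e-07), Pde7b 2.47-fold lower and Pde2a 2.11-fold lower, also in 6 of 6 libraries. Smaller rises were found for Pde7a (0.36 ± 0.083, adjusted p = 0.0028) and Pde4a (0.25 ± 0.075, adjusted p = 0.014). The Pde4a call was lost without wild-type replicate 3 (adjusted p = 0.056). Pde8a and Pde8b did not pass, with adjusted p values of 0.30 and 0.064, and Pde8b passed without wild-type replicate 3 (0.044), with nuclei matched on genes per nucleus (0.033) and with equal totals (0.037). Thus 8 of 10 members were called, 5 higher and 3 lower, where 43.1% of 13523 genes were called, 14.4% higher and 28.7% lower. The median size of the log2 difference was 1.19 for the members and 0.270 for all genes.

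Clusters within the MSN-like classes showed that the class means of Pde1a, Pde1c, Pde4b and Pde4d covered unlike nuclei. The D1 MSN-like class had 3 clusters. Leading genes included Cftr, Pdyn and Ebf1 in cluster 8 (3774 nuclei) and Gpr139, Dkk2 and Vit in cluster 9 (3607 nuclei). In cluster 10 (1131 nuclei) Impg1 came first, with Zp3r and Myo3b among the leading genes. Pde1a was 0.863, 2.21 and 2.96 (lowest, median, highest) in cluster 8 and 0.0468, 0.0709 and 0.110 in cluster 9, a 31.2-fold ratio of medians with cluster 8 higher in 6 of 6 libraries. The size of this ratio rests on the low level of cluster 9. Summed glutamatergic neuron-like markers stood at 3.49% of their source level in D1 MSN-like nuclei. The part of free RNA in the cluster 9 level was not tested. Pde4d also separated them, at 1.07 in cluster 8 and 0.202 in cluster 9, as did Pde1c at 2.59 and 0.873 and Pde4b at 2.96 and 1.40, with no overlap of libraries in any of the 3 cases. Pde2a was the other way round, with 2.48 in cluster 8 and 2.68 in cluster 9. Cluster numbers carry no tests here, since the leading genes of the clusters were drawn from the same nuclei.

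Cluster 10 of the D1 MSN-like class and cluster 2 of the D2 MSN-like class (1585 nuclei) shared leading genes, Zp3r and Myo3b among them, and lay on the same side for several phosphodiesterases. Pde4b was 7.62 in cluster 10 against 2.96 and 1.40 in the other D1 MSN-like clusters, and 11.6 in cluster 2 against 7.24 in cluster 1, the main D2 MSN-like cluster of 5491 nuclei. Pde1c was 4.68 in cluster 10 and 3.52 in cluster 2, against 0.873 to 2.59 in clusters 1, 8 and 9. Pde4a was 0.901 and 0.881, against 0.559 to 0.610. Pde8b went the other way, at 1.81 in cluster 10 and 1.97 in cluster 2, against 2.25 to 2.62 in the rest. For Pde1a, cluster 2 (1.19) lay above cluster 1 (0.607) in 6 of 6 libraries, while cluster 10 (0.433) lay between the other D1 MSN-like clusters, 6.11-fold above cluster 9 and 5.10-fold below cluster 8.

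**Figure D3:**
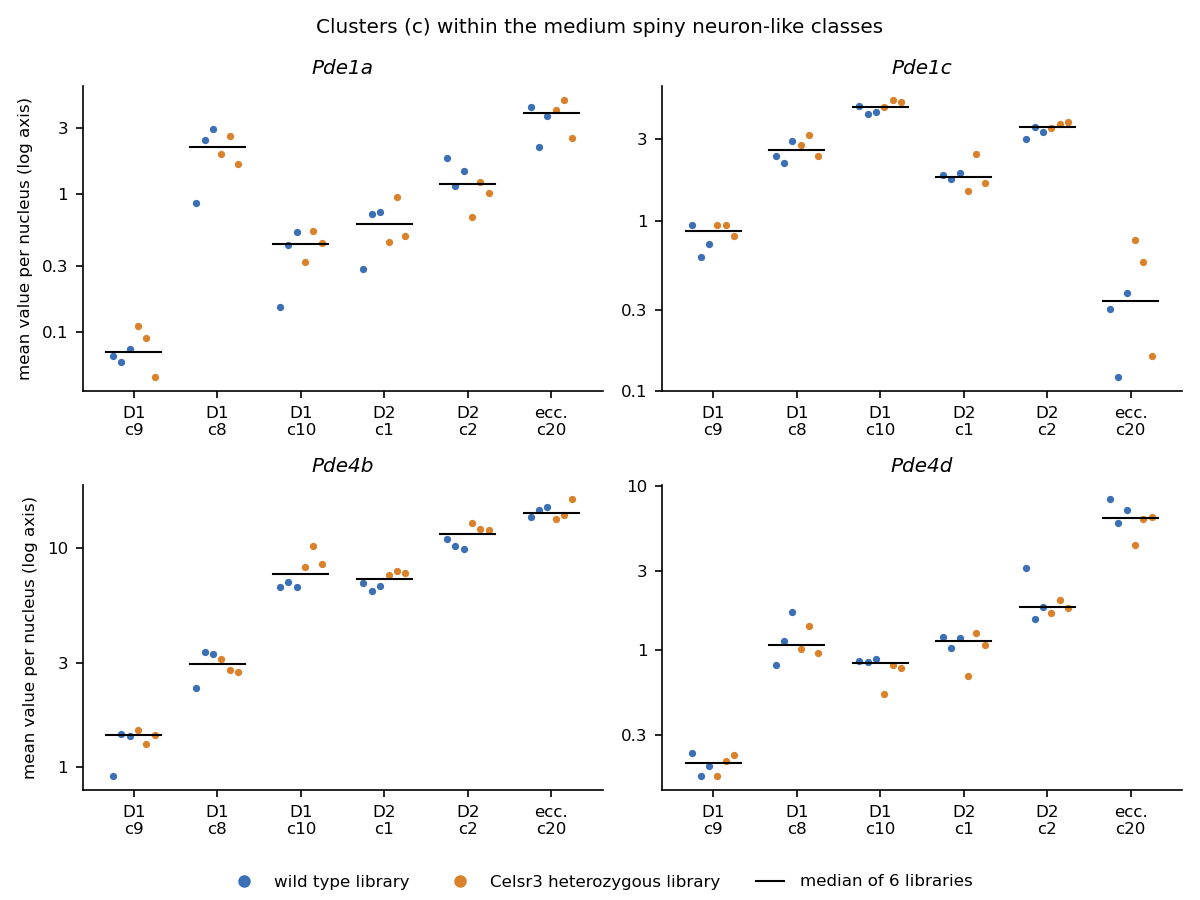
Level (log axis) of Pde1a, Pde1c, Pde4b and Pde4d in the clusters of the MSN-like classes (c9, c8 and c10 of D1, c1 and c2 of D2, c20 of eccentric), with 1 point per library and a line at the median. Pde1a medians run from 0.0709 in c9 to 2.21 in c8 within the D1 MSN-like class, and the wild-type point lowest in c8 (0.863) is replicate 1.

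Wild-type replicate 1 had the lowest Pde1a in clusters 8 (0.863), 10 (0.152) and 1 (0.286), yet the highest in cluster 2 (1.82). That library also had the largest share of cluster 8 in its D1 MSN-like nuclei, 58.2% against 38.6% to 48.4% in the others. The part of this share in the class mean of Pde1a was tested only by weighting the clusters equally, under which its genotype change in D1 MSN-like nuclei was 0.17, as against 0.16.

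In the oligodendrocyte lineage, Pde8a and Pde4b were higher in oligodendrocyte-like than in OPC-like nuclei of the same library. Pde8a rose from 0.106 to 3.26 (medians), a fitted log2 difference of 5.29 ± 0.40 SE or 39.0-fold (adjusted p = 1.1e-07, limma), and its OPC-like value was 0 in heterozygous replicate 1, which had 32 such nuclei. The fitted fold of Pde8a depends on the pseudocount in that library and is no bound. Pde4b was 5.23-fold higher (2.39 ± 0.092, adjusted p = 1.5e-10). In the other direction, Pde1a (-2.24 ± 0.17), Pde7b (-2.11 ± 0.11), Pde8b (-1.80 ± 0.11) and Pde4d (-1.57 ± 0.13) were lower in 6 of 6 libraries, with adjusted p values of at most 2.2e-07. Pde2a was lower in 5 of 6 libraries (-0.63 ± 0.19, adjusted p = 0.017), a call lost without heterozygous replicate 3 (adjusted p = 0.059) and without the filter on low values (0.056). Pde1c, Pde4a and Pde7a did not pass, though Pde4a did without heterozygous replicate 1 (0.46, adjusted p = 0.015). In all, 7 of 10 members were called, 2 higher and 5 lower, where 43.5% of 11515 genes were called, 16.7% higher and 26.8% lower. The median size of the log2 difference was 1.68 for the members and 0.390 for all genes.

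Committed oligodendrocyte precursor-like nuclei, the stage between these classes, did not hold intermediate levels of every gene. Pde4b was intermediate (20.3), Pde7a was highest there (1.61, against 0.523 in OPC-like and 0.513 in oligodendrocyte-like nuclei), and Pde7b was lowest there (0.410, against 3.67 and 0.918). Pde8a was 0.174, much nearer the OPC-like than the oligodendrocyte-like level. Within the oligodendrocyte-like class, clusters 13 (2592 nuclei), 11 (3860 nuclei) and 14 (1933 nuclei) had Pde4b medians of 57.1, 66.2 and 79.4. Their Pde8a medians were 2.90, 3.27 and 3.52, and Opalin was among the leading genes of cluster 14. Pde4d ran the other way, at 4.48, 2.33 and 1.45, and Pde7a was 1.04 in cluster 14 against 0.380 and 0.381 in the others.

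**Figure D4:**
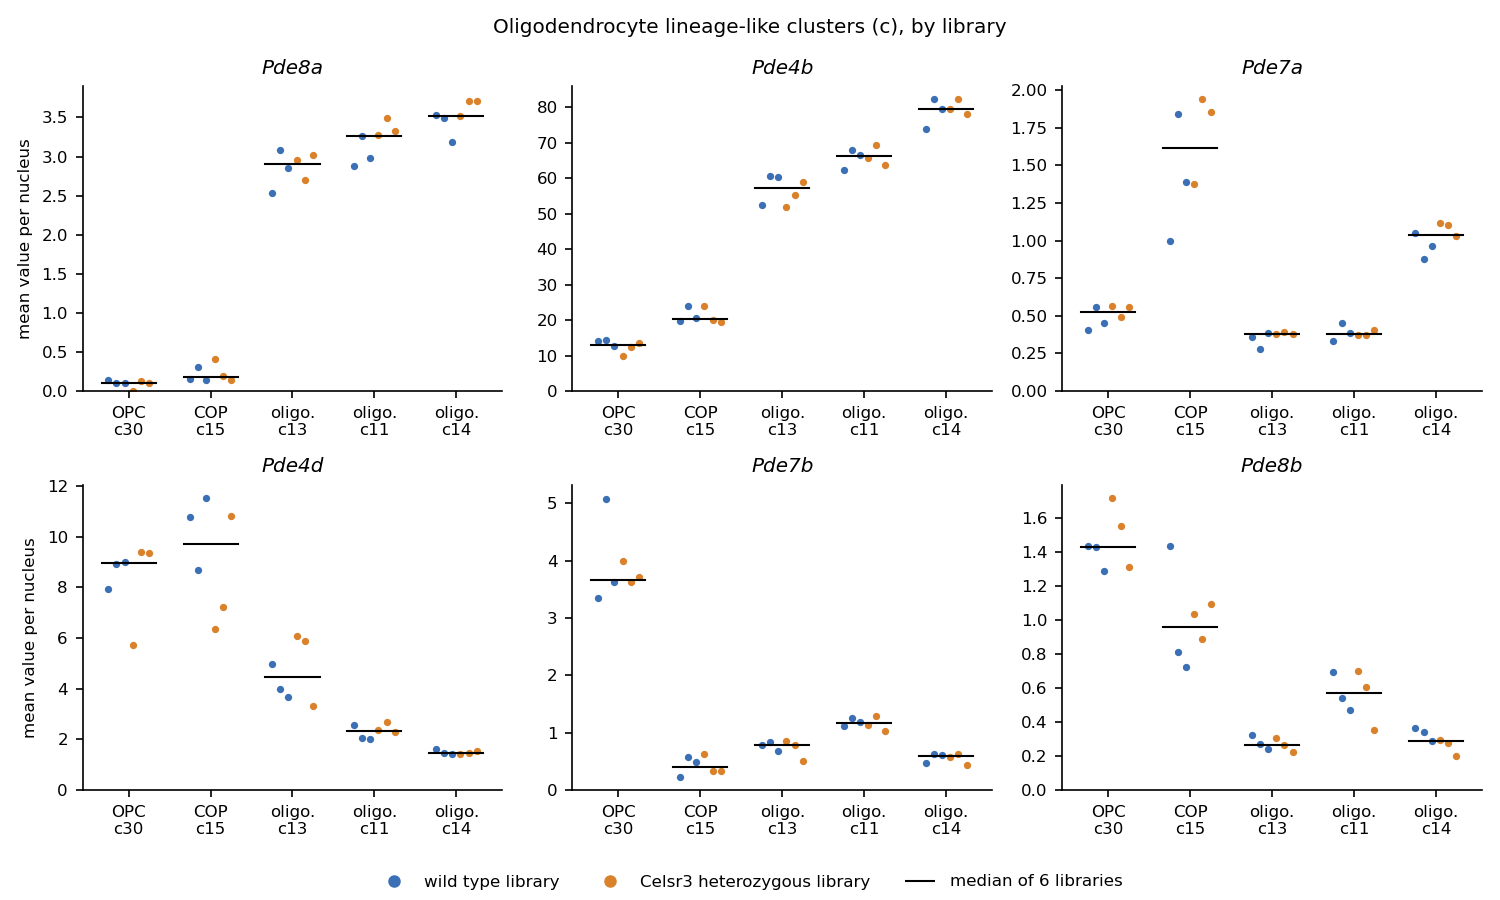
Level (vertical axis from 0) of 6 phosphodiesterases in the OPC-like (c30), committed precursor-like (COP, c15) and oligodendrocyte-like clusters (c13, c11, c14), with 1 point per library and a line at the median of 6. Pde8a is near 0 until the oligodendrocyte-like clusters, Pde7a peaks in c15 at 1.61, and Pde7b and Pde8b are highest in c30.

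The comparison of genotypes asked whether phosphodiesterase levels differed in Celsr3 heterozygous mice. In all nuclei, 0 of 10 members were called at an adjusted p below 0.05 (limma), and 0.0% of the 14398 genes tested were called. At an unadjusted p below 0.05 the members had 0, beside 9.98% of all genes. Of the members 6 were higher and 4 lower in heterozygous libraries, beside 69.2% of all genes higher, with a median log2 change of 0.067 against 0.071 for all genes. Celsr3 itself fell short of the threshold in the planned fit: its mean was 69.3% of wild type in all nuclei (adjusted p = 0.45), 56.9% in D1 MSN-like (adjusted p = 0.13) and 61.2% in D2 MSN-like nuclei (adjusted p = 0.28). In D1 MSN-like nuclei Celsr3 passed without wild-type replicate 1 (log2 change -0.83, adjusted p = 0.023) and with limma's array weights (-0.77, adjusted p = 0.013).

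Over all nuclei, Pde4b was 18.4, 16.4 and 16.0 in the wild-type and 12.3, 15.6 and 15.7 in the heterozygous libraries. The groups did not overlap, as for 19.4% of all genes, and the change of -0.23 ± 0.13 did not pass (adjusted p = 0.55). Oligodendrocyte-like nuclei, which carry most of this value, made up 24.72%, 17.09% and 17.29% of the wild-type and 12.16%, 16.25% and 17.65% of the heterozygous libraries. The part of these shares in the difference was tested only by weighting the clusters equally, as given below. Within oligodendrocyte-like nuclei Pde4b was 60.6, 70.2 and 68.7 in wild-type and 64.6, 68.1 and 66.3 in heterozygous libraries (log2 change -0.0011 ± 0.093). The genotypes overlapped there, and wild-type replicate 1 was lowest. With each cluster weighted equally the change over all nuclei was 0.030, and with nuclei matched on genes detected it was 0.044.

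In D1 MSN-like nuclei 0 of 10 members were called (0.0149% of 13450 genes) and 0 had an unadjusted p below 0.05 (9.92% of genes). Of the members 7 were higher in heterozygous libraries, beside 64.9% of genes, and 1 did not overlap between genotypes, beside 16.4%. That member was Pde4b, with 2.37, 3.01 and 2.76 in wild-type and 3.02, 3.08 and 3.09 in heterozygous libraries (0.18 ± 0.088, adjusted p = 0.54). Its groups were separated by less than 0.01, while wild-type replicates 1 and 3 lay below the other 4 libraries. Pde1a had 0.540, 1.05 and 1.25 against 0.846, 1.37 and 0.863 (0.16 ± 0.29, adjusted p = 0.88). The sign turned when wild-type replicate 1 was left out (-0.19). Pde7b had 9.11, 13.8 and 12.6 against 10.1, 10.6 and 11.1, with the heterozygous libraries inside the wild-type range.

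In D2 MSN-like nuclei Pde4b came nearest to a change. Wild-type libraries had 7.76, 7.13 and 7.44, and heterozygous libraries 9.00, 9.04 and 8.59, so the groups were fully apart, with the heterozygous ones higher. The mean was 7.45 ± 0.32 (SD, n = 3) in wild type and 8.88 ± 0.25 (SD, n = 3) in heterozygous libraries. The log2 change was 0.25 ± 0.064 SE (limma, adjusted p = 0.28), and over all alternative settings it stayed between 0.22 and 0.30 with adjusted p values from 0.042 to 0.68. The lowest of these came from limma's array weights, which give libraries unequal weight. No member was called in the planned fit, where 0.00786% of 12719 genes were, and Pde4b was the only member of 10 with an unadjusted p below 0.05, beside 8.48% of genes. Of the members 5 were higher (60.3% of genes) and 1 did not overlap between genotypes (14.5% of genes).

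Clusters 1 and 2 make up the D2 MSN-like class, so their values are parts of the same observation. In cluster 1 it was 6.92, 6.40 and 6.73 in wild-type and 7.56, 7.86 and 7.68 in heterozygous libraries. In cluster 2 the values were 11.0, 10.2 and 9.89 against 13.1, 12.3 and 12.2, and in the D1 MSN-like cluster 10 they were 6.63, 7.06 and 6.64 against 8.18, 10.2 and 8.52. The genotypes did not overlap in these 3 clusters, as for 14.5%, 13.2% and 12.7% of all genes in clusters 1, 2 and 10, and they overlapped in clusters 8 and 9. These cluster values were not tested.

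**Figure D5:**
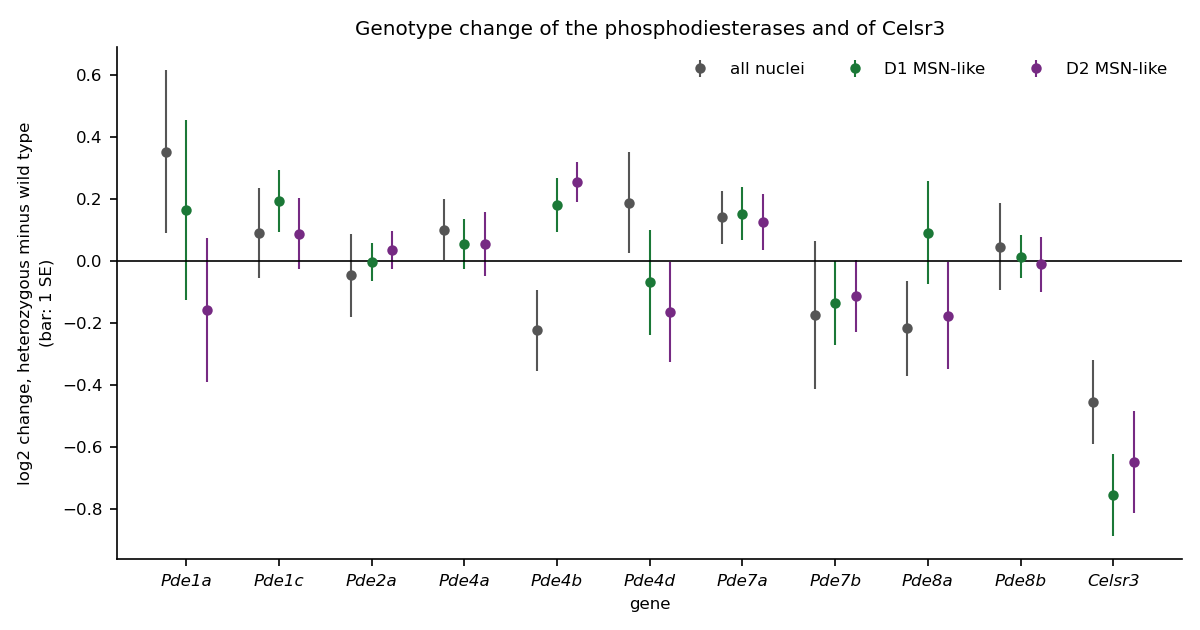
Log2 change (heterozygous minus wild type, 3 libraries each, bars 1 SE) of the 10 phosphodiesterases and Celsr3 in all nuclei and in the principal MSN-like classes. Celsr3 lies lowest at -0.46, -0.76 and -0.65, and among the phosphodiesterases in MSN-like nuclei the D2 value of Pde4b is highest at 0.25.

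The genotype change of no member was shown to differ between D1 and D2 MSN-like nuclei: 0 of 10 passed, beside 0.0474% of 12669 genes. Pde1a was the 1 member with an unadjusted p below 0.05 (difference of changes 0.32 ± 0.11, adjusted p = 0.89, limma), beside 5.24% of genes. The difference for Pde4b was -0.074 ± 0.070 (adjusted p = 0.96).

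Over the 14 classes with enough nuclei, 115 of 140 pairs of member and class passed the filter on low values and 0 were called, beside 0.00375% of all gene and class pairs. At an unadjusted p below 0.05 there were 3 pairs, beside 6.29% of all pairs. The heterozygous libraries were higher in 67 of the 115 pairs, beside 56.5% of all pairs, and 101 had a log2 change smaller than 0.3 in size. The genotypes did not overlap in 9 pairs, beside 11.9% of all pairs: Pde4b in D1 MSN-like, D2 MSN-like and microglia-like nuclei, Pde4a in eccentric MSN-like and GABAergic interneuron-like nuclei, Pde1c in cholinergic interneuron-like, OPC-like and neuroblast-like nuclei, and Pde7a in neuroblast-like nuclei. None of the counts called, with an unadjusted p below 0.05 or without overlap was above its share over all pairs.

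Pde1c in cholinergic interneuron-like nuclei had the largest change of the tested pairs. It was 0.600, 0.675 and 0.700 in wild-type libraries and 2.44, 1.09 and 1.45 in heterozygous ones, a log2 change of 1.25 ± 0.29 (limma, adjusted p = 0.78). Each library had only 30 to 44 such nuclei. Over all libraries Pde1c there did not exceed summed MSN markers (42.2% of the MSN-like level, markers 47.1%). Those markers are a weak yardstick in this class, since Pde7b, Pde2a and Pde8b stood at 2.62%, 5.96% and 6.64% of their MSN-like levels. The part of free RNA in the change of Pde1c was not tested. In OPC-like nuclei Pde1c was 0.603, 0.777 and 0.765 against 1.41, 0.887 and 0.826 (0.50 ± 0.22, adjusted p = 0.89). Heterozygous replicate 1 was highest, over 32 nuclei: without it the change was 0.27, and with nuclei matched on genes detected it was -0.098. Pde4a in eccentric MSN-like nuclei was 0.751, 0.842 and 0.880 against 0.687, 0.689 and 0.681 (-0.26 ± 0.13, adjusted p = 0.95).

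The rest of the cyclic nucleotide pathway was counted in 5 lists of 90 genes: other phosphodiesterases, cyclases, effectors, anchors and substrates, and G proteins that act on cyclases. Genotype called 0 of the 71 tested in all nuclei, 0 of 66 in D1 MSN-like and 0 of 64 in D2 MSN-like nuclei (limma), with 4, 5 and 7 at an unadjusted p below 0.05, beside 9.98%, 9.92% and 8.48% of all genes. The genes named next were chosen by rank of p alone. The smallest p values belonged in D2 MSN-like nuclei to Akap12, an anchor of protein kinase A (-0.44 ± 0.13, adjusted p = 0.38), and Prkar1b, a regulatory subunit of that kinase (0.25 ± 0.079, adjusted p = 0.40). Over all nuclei they belonged to Gnaz, an inhibitory G protein subunit (0.28 ± 0.087, adjusted p = 0.45), and Prkg1, a cGMP-dependent kinase (0.34 ± 0.11, adjusted p = 0.46). In D1 MSN-like nuclei they belonged to Creb1, the cAMP-regulated transcription factor (0.23 ± 0.079, adjusted p = 0.40), and Adcy9, an adenylyl cyclase (0.24 ± 0.088, adjusted p = 0.41).

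Between MSN-like classes the pathway lists moved in both directions, as did the phosphodiesterases above. Of 9 other phosphodiesterases tested 4 were higher and 1 lower in D1 than in D2 MSN-like nuclei, of 11 cyclases 3 and 5, of 16 effectors 6 and 4, of 20 anchors and substrates 3 and 4, and of 10 G proteins 2 and 6, beside 27.7% higher and 8.33% lower among all genes. In eccentric MSN-like nuclei against the mean of both, the counts higher and lower were 3 and 4 of 9 other phosphodiesterases, 3 and 5 of 11 cyclases, 7 and 2 of 16 effectors, 3 and 6 of 20 anchors and substrates, and 3 and 6 of 10 G proteins, beside 14.4% and 28.7% of all genes. In oligodendrocyte-like against OPC-like nuclei 1 of 5 other phosphodiesterases was higher and 3 were lower, of 11 cyclases 1 and 8, of 15 effectors 3 and 8, of 20 anchors and substrates 1 and 5, and of 10 G proteins 4 and 4, beside 16.7% higher and 26.8% lower among all genes.

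The genes whose levels ran most alike over the 17 classes were Pde10a (Pearson r = 0.92), Dgkh (0.91) and Ptpn5 (0.90) for Pde2a, and Rgs9 (0.88), Hpca (0.88) and Ppp3ca (0.88) for Pde7b, among 14261 genes compared. Pde10a is the main dual-substrate phosphodiesterase of MSNs, and Ptpn5 and Rgs9 encode the striatum-enriched phosphatase STEP and a regulator of G protein signalling. For Pde8a they were Sept4 (0.90), Prr5l (0.88) and Ppp1r14a (0.87), and for Pde4b Mapt (0.82), Tmeff2 (0.81) and Pex5l (0.80), each highest in oligodendrocyte-like nuclei. Pde7a ran closest to Gm16093 (0.94), the antisense gene that overlaps it, before Txndc12 (0.87) and Ibtk (0.86). The leading genes for the others were B4galnt1 (0.88), Clstn2 (0.87) and Sgf29 (0.87) for Pde1a, and Srrt (0.80), Camkmt (0.79) and Zswim5 (0.78) for Pde1c. They were Pde6a (0.94), Kcnab2 (0.93) and Spata2l (0.91) for Pde4a, Ncald (0.82), 4921511C10Rik (0.79) and Nelfb (0.77) for Pde4d, and Fry (0.80), Ddn (0.80) and Prkce (0.77) for Pde8b. Among the members, Pde2a and Pde7b had the highest correlation (0.79). These correlations describe classes that share libraries, and no p is given.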

How the data were processed

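Nuclear RNA from 6 libraries was profiled with 10x Genomics 3′ v3.1 chemistry and sequenced on 1 lane, per the labels' protocols. Cell Ranger, Seurat 4.1 and the builds mm10 and GRCm38 are named in the submitters' processing notes, with no further parameters. The unit of the values the authors deposited was inferred to be a score, namely UMI values corrected for depth and then rounded. It rests on the table itself, whose total per nucleus (4523 to 10638) had a CV of 10.7%. Count tests were therefore not used, although UMI counts may lie beneath. The number of table columns left unused was 0.

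Nuclei were clustered with scanpy 1.11.5 (2000 variable genes less 8 phosphodiesterases, 30 components, 15 neighbours, Leiden resolution 1.0) and named from marker lists. Scrublet called 0.317% to 0.824% of a library, below 0.5% in 2 libraries, and was taken not to have worked there. A doublet score above 0.25 removed a nucleus, and a cluster in which over 30% scored so was removed whole (907 nuclei). Clusters could stay unnamed.

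Levels were averaged per library and class, and log2(mean + 0.01) was fitted with limma 3.58.1 (R 4.3.3; trended, Benjamini-Hochberg over all genes tested). Genes needed a mean of 0.02 and a summed value of 30 per library. Within a library the pseudocount shrinks the fold change of a low gene. Level comparisons used differences within a library. The fit was tested on simulated data. Alternatives were pseudocount, filter, scaling, array weights, replicate block, left-out libraries, matched nuclei, cluster weights, doublets and clustering with all variable genes. Named were all members, Celsr3, the 3 genes most alike in pattern, and the 2 pathway genes of smallest p in each population. The members and lists were chosen with earlier results of these data known.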

Additional observations from a re-analysis of the deposited data

Results flagged for a closer look

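In 12 of 160 levels over 6 libraries (7.5%, where chance flags about 5%), 1 library stood apart from the other 5, by a gap to its neighbour that was a larger part of the whole range than Dixon's critical value for 6 samples.

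Pde1c had 3 of these. Its level in committed oligodendrocyte precursor-like nuclei was 0.724 in heterozygous replicate 1, against 0.292 to 0.413 in the others. In OPC-like nuclei of the same library it was 1.41, against 0.603 to 0.887, over 32 nuclei. In D2 MSN-like nuclei it was 2.79 in heterozygous replicate 2, against 2.01 to 2.22.

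Pde4b also had 3. It was 4.52 in endothelial-like nuclei of heterozygous replicate 3 (others 2.87 to 3.46) and 6.89 in fibroblast-like nuclei of that library (others 2.48 to 3.87). In GABAergic interneuron-like nuclei it was 3.4 in heterozygous replicate 2 (others 1.86 to 2.35).

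Pde8a had 3 as well. It was 0.593 in endothelial-like nuclei of heterozygous replicate 3, below the others at 0.719 to 0.785. It was 0.116 in microglia-like nuclei of wild-type replicate 1 (others 0.0531 to 0.0726), and 0 in OPC-like nuclei of heterozygous replicate 1 (others 0.0964 to 0.140).

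Pde2a was 0.692 in ependymal-like nuclei of wild-type replicate 2 (others 0 to 0.231) and 0.186 in oligodendrocyte-like nuclei of heterozygous replicate 3 (others 0.230 to 0.251). Pde4a was 0.0788 in astrocyte-like nuclei of wild-type replicate 2 (others 0.111 to 0.119).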

How the results depend on the processing

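The called level differences kept their direction under every alternative run. Of 769 values of single genes under alternatives, 723 kept direction and side of the threshold, 35 changed sign, 8 newly passed and 3 no longer passed. All sign changes were in differences that had not passed, and the cause was not tested. Members called were 4 to 5 for D1 against D2, 8 to 9 for eccentric nuclei and 6 to 8 for oligodendrocyte-like against OPC-like nuclei. Of 340 values of class levels, with doublets kept or with equal totals, 310 moved by less than the spread between libraries. By the share of nuclei above 0, the class of the highest level ranked 2 for Pde1a, 3 for Pde7a and 2 for Pde7b. Raw depth is unknown, classes with few nuclei are measured least well, and the members were not all testable in every class.

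Counts of all genes called depended on the setting, some of them strongly. In D1 MSN-like nuclei (2 genes) the count was 462 with array weights, 4 with matched nuclei, 4 with equal cluster weights, and 1 to 209 with a library left out, the highest without wild-type replicate 1. In D2 MSN-like nuclei (1 gene) it was 2 without the filter, 173 with array weights, 5 with the replicate block, and 0 to 115 with a library left out, the highest again without wild-type replicate 1. Array weights also called 1 member there, Pde4b. For the difference of genotype changes (6 genes) it was 3 with a pseudocount of 0.1, 0 without the filter, 3 with the replicate block, and 3 to 30 with a library left out, the highest without heterozygous replicate 3. For D1 against D2 levels it was 3240 with matched nuclei, as against 4868. Size factors moved the median change of all genes from 0.071 to 0.0051 over all nuclei. The replicate numbers share no stated litter or batch, and the correlation of same-numbered libraries was -0.04, 0.139 and -0.071 over all nuclei, 0.27, 0.012 and 0.186 in D1 and 0.26, 0.053 and 0.178 in D2 MSN-like nuclei, not above 0.1 in every pair, so they were not taken to pair the samples. Not every library correlated best with its own number.

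Sign changes by setting were these. With matched nuclei: Pde4b over all nuclei 0.044, Pde4a and Pde4d in D1 MSN-like nuclei -0.056 and 0.071, Pde1c in OPC-like nuclei -0.098, and the D1 against D2 levels of Pde7a and Pde8a -0.063 and -0.017. With equal cluster weights: Pde4b over all nuclei 0.030, Pde2a in D1 0.0083 and Pde8b in D2 MSN-like nuclei 0.063. With array weights: Pde2a in D1 0.019, Pde4d and Pde8b in D2 MSN-like nuclei 0.030 and 0.090. With size factors: Pde8b in D1 -0.040 and Pde2a in D2 MSN-like nuclei -0.00042. With all variable genes clustered, Pde1c in oligodendrocyte-like against OPC-like nuclei was -0.011.

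With each library left out in turn, sign changes fell within these ranges. In D1 MSN-like nuclei they were -0.19 to 0.40 for Pde1a (below 0 without wild-type replicate 1 or heterozygous replicate 2), -0.035 to 0.025 for Pde2a, -0.24 to 0.082 for Pde4d, -0.044 to 0.21 for Pde8a and -0.021 to 0.054 for Pde8b. In D2 MSN-like nuclei they were -0.45 to 0.044 for Pde1a, -0.060 to 0.17 for Pde1c, -0.046 to 0.12 for Pde4a and -0.10 to 0.049 for Pde8b. In oligodendrocyte-like against OPC-like nuclei they were -0.0033 to 0.21 for Pde1c and -0.022 to 0.083 for Pde7a.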

Other observations

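Pde4d was high in a cluster of nuclei that was given no class name. Cluster 28 (695 nuclei, led by Trpm6, Abhd12b, Lhx9, Lef1 and Shox2) had Pde4d at 15.1, 16.0 and 17.0 (lowest, median and highest) over the 5 libraries with enough of its nuclei. Cluster by cluster, only cluster 26, 1153 glutamatergic neuron-like nuclei, had a higher median of Pde4d (18.2, 20.3 and 24.7), and the mural-like cluster had a median of 12.2. Pde4b in cluster 28 had a median of 1.61, and Pde8b one of 0.182. The largest share of this cluster from a single library was 35.5%, from heterozygous replicate 3. Another unnamed cluster, 16 (2692 nuclei, led by Sim1, Baiap3 and Glra3), had Pde4d at 8.72, 9.04 and 9.95 and Pde1a at 2.54, 3.64 and 4.13, within the Pde1a range of eccentric MSN-like nuclei. Heterozygous replicate 2 gave 40.2% of cluster 16, and what tissue either cluster came from was not tested.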
